A study of Mus musculus with 12 samples.

Results

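The genes described here are 10 genes of the heat shock system, taken by their names from the LMPP, CD115- CDP and bone marrow (BM) pDC expression tables, which hold 17445, 16821 and 16896 genes. All 10 were found in each of the 3 tables, and all 10 passed the filter on low values in each. They comprise genes whose transcription is strongly induced by protein damage (Hspa1a, Hspa1b, Dnajb1, Hsph1 and Hsp90aa1), their constitutive counterparts in the cytosol (Hspa8 and Hsp90ab1), the mitochondrial chaperonin pair (Hspd1 and Hspe1) and the transcription factor Hsf1.

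Heat shock proteins bind unfolded or damaged proteins and help them to fold. HSP70 proteins work in cycles of ATP hydrolysis that J-domain proteins such as DNAJB1 start and that nucleotide exchange factors such as HSPH1 reset, and HSP90 proteins act later, on folded clients such as kinases and receptors. In unstressed cells HSF1 is held inactive by chaperones; when damaged proteins occupy those chaperones, HSF1 trimerizes and binds heat shock elements in the promoters of the inducible genes. Inducible HSP70 genes are also known to respond to the handling and dissociation of cells.

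RNA-seq was made from LMPPs (lymphoid-primed multipotent progenitors), CD115- CDPs (common dendritic cell progenitors without surface CD115) and BM pDCs (plasmacytoid dendritic cells) of C57BL/6 mice that all carried the floxed Hdac3 alleles and all received tamoxifen for 5 days, with the sort 7 days later. Control mice were Hdac3 fl/fl. HDAC3-deficient mice were Hdac3 fl/fl CreERT2, in which tamoxifen activates a Cre recombinase expressed from the Rosa26 locus in cells of all types, so that the gene is lost throughout the body and not in one lineage. Each cell type had 2 control and 2 HDAC3-deficient libraries, 12 in all. Nothing in the labels says that libraries came from separate mice, so p-values measure the spread between these libraries, which may be technical. The controls carry no Cre, so loss of HDAC3 and activity of Cre cannot be told apart.

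Values are FPKM (fragments scaled to transcript length and to sequencing depth), and each table was normalized on its own. The progenitors were lysed in a buffer for small cell numbers and the pDCs in Trizol, and libraries followed Illumina or BGI protocols, so a difference in level between cell types cannot be told apart from these steps. BM pDC libraries held 18117748 to 18462220 expected counts, and the depth of the progenitor libraries is unknown. Hdac3 measured 56.5 and 66.4 FPKM in control and 16.9 and 9.87 FPKM in HDAC3-deficient LMPPs, 58.2 and 39.6 against 12.1 and 0.93 in CD115- CDPs, and 38.9 and 37.8 against 15.6 and 15.9 in BM pDCs. HDAC3-deficient CD115- CDP library 2 stood apart, with 11288 genes above 0 against 13684 to 15173 in the other 3. The markers Cd34, Flt3 and Kit were present in both progenitors. In LMPPs Kit fell from 122 and 138 to 87.3 and 67.5 FPKM (limma, adjusted p = 0.0076). Cd34 and Flt3 were lower in both HDAC3-deficient LMPP libraries than in both controls, without a call (limma, adjusted p = 0.055 and 0.066). The groups of Ly6a, a further LMPP marker, overlapped. Csf1r, which encodes CD115, and Il7r served as markers that should be low in CD115- CDPs. Csf1r nevertheless measured 139 and 95.3 FPKM in control CD115- CDPs, against 14.9 and 25.6 FPKM in control LMPPs. Summed, Csf1r and Il7r were 154 and 106 FPKM in control and 66.4 and 24.25 FPKM in HDAC3-deficient CD115- CDPs. Each was lower in both HDAC3-deficient libraries than in both controls (limma, adjusted p = 0.51 for Csf1r and 0.34 for Il7r). The cause was not tested. The summed pDC markers of the BM pDC libraries were 7078 and 7089 FPKM in controls against 4771 and 4563 FPKM. Of these 7 markers 3 fell by edgeR (Siglech, Bst2 and Tcf4) and 0 rose. Ccr9, Spib, Irf8 and Ptprc had no call, so the lower sum does not describe the whole list. In bulk samples fewer cells of a type and less RNA per cell cannot be told apart.

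Hspa1a and Hspa1b are near copies, and their sequences are shown first because reads and regulation of the pair are hard to separate. Both are genes of 1 exon on the minus strand of chromosome 17 (GRCm38.p6, the mm10 build), Hspa1b at 34956429 to 34959238 and Hspa1a at 34969359 to 34972156, with 10120 bases between them. Their coding sequences were identical at 99.5% of 1926 aligned positions, and the longest identical run was 638 bases. Their 250 bases before the start were identical at 98.8%. For comparison, the coding sequences of Hspa1a and Hspa8 were identical at 74.8% and those of Hsp90aa1 and Hsp90ab1 at 75.9%. Reads within identical stretches match both copies, so the split of reads between them is uncertain in every table. The 160 bases before the start of Hspa1a, Hspa1b and Dnajb1, the 3 genes that fell in LMPPs, and 30 bases around the heat shock elements of Hsph1 and Hspe1 are given from RefSeq, read 5′ to 3′ on the strand of the gene. Capitals mark the letters of a heat shock element (GAANNTTC or TTCNNGAA, overlapping matches joined) or of a CCAAT box (CCAAT or ATTGG), the promoter element bound by NF-Y.
Hspa1a, chr17:34972157-34972316 (-): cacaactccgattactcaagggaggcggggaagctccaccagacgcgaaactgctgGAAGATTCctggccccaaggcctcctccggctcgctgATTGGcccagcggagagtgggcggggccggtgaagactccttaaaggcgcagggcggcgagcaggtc
Hspa1b, chr17:34959239-34959398 (-): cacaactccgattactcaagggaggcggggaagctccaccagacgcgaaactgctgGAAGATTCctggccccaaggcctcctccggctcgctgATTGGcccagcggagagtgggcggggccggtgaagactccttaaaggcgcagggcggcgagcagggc
Dnajb1, chr8:83608015-83608174 (+): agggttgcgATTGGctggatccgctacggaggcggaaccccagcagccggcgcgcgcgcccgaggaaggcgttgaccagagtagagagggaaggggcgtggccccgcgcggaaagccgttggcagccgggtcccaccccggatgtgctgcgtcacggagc
Hsph1, chr5:149636287-149636316 (-): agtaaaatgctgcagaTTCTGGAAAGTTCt
Hspe1, chr1:55088053-55088082 (+): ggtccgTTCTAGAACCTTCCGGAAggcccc

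Promoter windows of 250 bases before and 50 bases from the start on were matched for 6 of the 10 genes: Hspa1a, Hspa1b, Dnajb1, Hsph1, Hspd1 and Hspe1. Dnajb1, Hsph1 and Hspd1 have 2 windows each, for 2 starts. With the first transcribed base counted as 0, Hspa1a and Hspa1b held the same element of 2 units at -104 to -97 and the same CCAAT box at -67. Hspe1 held 3 overlapping elements of 2 units at -89 to -72, which make up 2 elements of 3 units (an element followed, after any 2 bases, by a further GAA or TTC in alternation). The same bases lie at -144 to -127 of the second Hspd1 start, since Hspd1 and Hspe1 are transcribed away from each other from one region of chromosome 1. Hsph1 held an element of 2 units at -33 to -26 and one of 3 units at 36 to 48, inside the transcript. Neither window of Dnajb1 held these letters. Among all 32851 promoter windows searched on both strands, 15.1% held an element of 2 units, 0.603% one of 3 units and 37.4% a CCAAT box. A TATAAA box, found in 13.6% of all windows, was in none of the 9 windows of these genes.

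**Figure D1:**
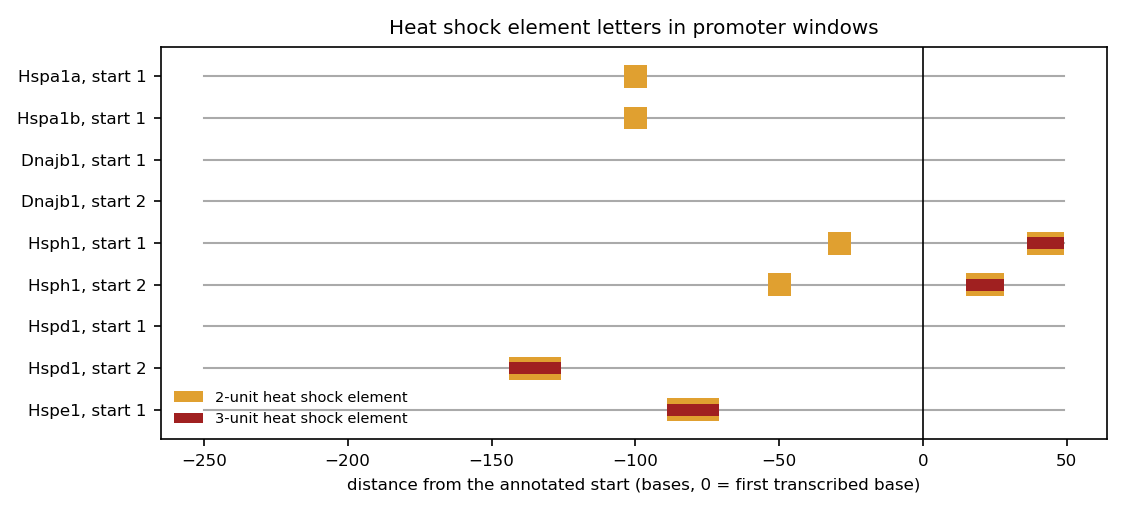
Positions of heat shock element letters in the 9 promoter windows of 6 genes, as distance in bases from the annotated start (0, vertical line), with elements of 2 units in orange and of 3 units in red. Hspa1a and Hspa1b hold the same single element at -104, and elements of 3 units lie near the starts of Hsph1, Hspd1 (second start) and Hspe1.

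In LMPPs the inducible HSP70 genes and their J-domain partner fell and the mitochondrial chaperonin pair rose. Of the 10 genes, 3 fell (Hspa1a, Hspa1b and Dnajb1), 2 rose (Hspd1 and Hspe1) and 5 had no call at an adjusted p under 0.05 by limma over 11146 genes. Among all tested genes 23.1% had a call, with 18.8% fallen and 4.31% risen, or 480 calls up and 2096 down. With a median-ratio scaling, which moved the median of all genes from -0.23 to near 0 on the log2 scale, the split was 863 up and 999 down. The libraries did not overlap for 8 of the 10 genes, 5 of them higher and 3 lower in HDAC3-deficient LMPPs, against 65.8% of all tested genes (17.6% higher and 48.2% lower). The median log2 change was 0.20 for the 10 genes and -0.23 for all tested genes.

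In CD115- CDPs 0 of the 10 genes rose or fell by limma, as did 0.00% of the 10832 tested genes. At an unadjusted p under 0.05 there were 5 genes higher and 2 lower, against 3.06% and 5.95% of all tested genes, 9.01% in all. The 2 lower genes were Hspa1a and Dnajb1. The libraries did not overlap for 5 genes higher and 2 lower, against 15.2% and 28.4% of all tested genes, 43.6% in all. Calls appeared when either HDAC3-deficient library was left out, among the 10 genes as among all tested genes. In such a fit the single library left in the group is taken to vary as the controls do.

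In BM pDCs 5 of the 10 genes rose (Hspa1a, Hspa1b, Hsp90aa1, Hspa8 and Hsp90ab1), 2 fell (Hsph1 and Hspe1) and 3 had no call by edgeR over 12716 genes. Calls were frequent in this comparison, at 44.1% of all tested genes, of which 21.6% rose and 22.5% fell. There were 2753 calls up and 2858 down, and limma on FPKM, where the median of all genes was -0.15 on the log2 scale, gave 1881 up and 3696 down. The libraries did not overlap for 5 genes higher and 3 lower, against 27.2% and 48.9% of all tested genes, 76.1% in all. The median log2 change was 0.27 for the 10 genes and -0.01 for all tested genes.

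**Figure D2:**
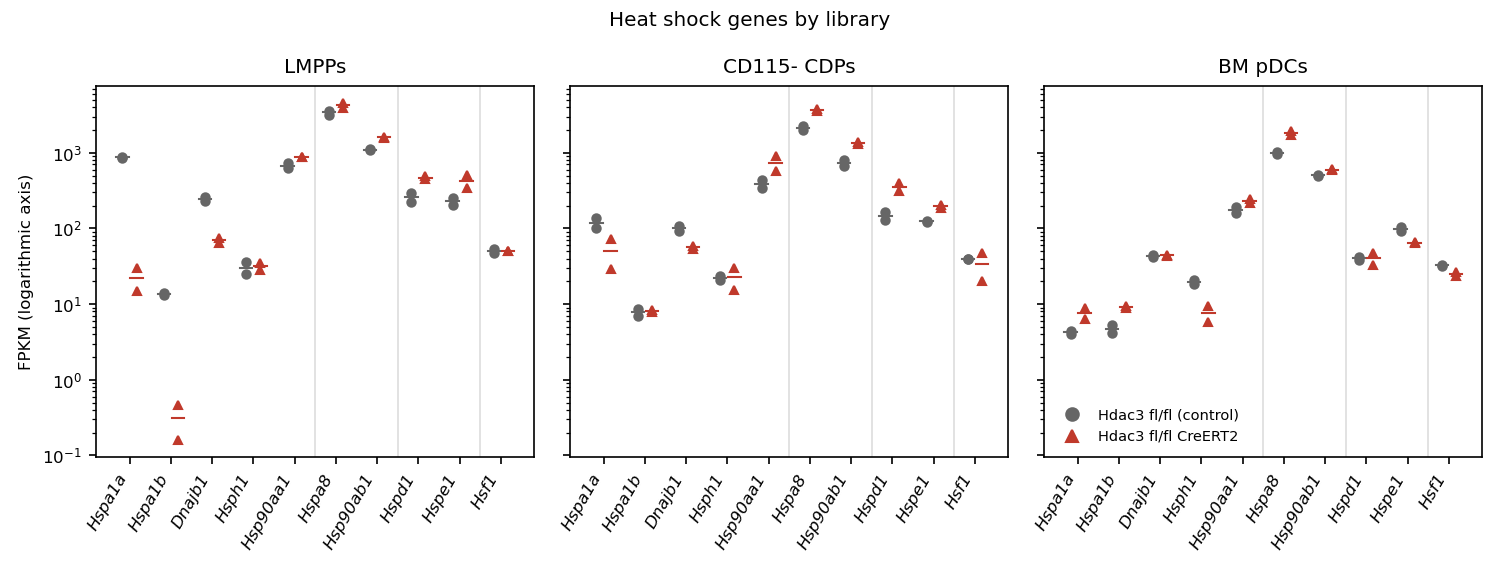
FPKM of the 10 genes in each library on a logarithmic axis, in 3 panels by cell type, with control libraries as circles, HDAC3-deficient libraries as triangles and bars at the mean of 2 libraries. In LMPPs Hspa1a stands at 865 and 880.3 FPKM in controls and at 30.1 and 14.7 FPKM in HDAC3-deficient libraries, while Hspa8 lies between 3203 and 4567 FPKM in all 4.

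Hspa1a, which encodes the major stress-inducible HSP70, had the third highest level of the 10 genes in control LMPPs and the second lowest in HDAC3-deficient LMPPs. Its values were 865 and 880.3 FPKM in controls and 30.1 and 14.7 FPKM in HDAC3-deficient libraries. The controls were nearly equal, HDAC3-deficient library 2 was below library 1, and the groups were far apart. The control mean was 38.9 times the HDAC3-deficient mean, and on the log2(FPKM + 0.5) scale Hspa1a fell by 5.34 (SE 0.24; limma, adjusted p = 8.8e-09). The log2 change was -5.09 with median-ratio scaling, and it ranged from -5.84 to -4.83 when 1 library was left out.

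Hspa1b, the second copy, was listed far lower in LMPPs but moved with Hspa1a. Its values were 13.3 and 14.1 FPKM in controls and 0.47 and 0.16 FPKM in HDAC3-deficient libraries. Again the controls were close to each other and the groups did not overlap. The log2 change was -4.15 (SE 0.29; limma, adjusted p = 1.2e-06), a value pulled toward 0 by the pseudocount of 0.5, and it was -5.17 with a pseudocount of 0.1. With the 2 copies added up before the fit, the pair fell by 5.34 on the log2 scale (SE 0.25; limma, adjusted p = 9.4e-09).

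In CD115- CDPs Hspa1a was lower in both HDAC3-deficient libraries without passing the test. It measured 136 and 102 FPKM in controls and 71.9 and 29.3 FPKM in HDAC3-deficient libraries. Both HDAC3-deficient values lay below both controls, and library 2 was the lowest. The log2 difference was -1.35 (limma, adjusted p = 0.51), and Hspa1a was called at -1.99 without HDAC3-deficient library 1 (limma, adjusted p = 9.9e-08) and at -0.71 without library 2 (limma, adjusted p = 0.028). It was also called when libraries of equal number were paired as a block (limma, adjusted p = 0.011). Hspa1b stood at 7.04 and 8.67 against 7.76 and 8.48 FPKM, and the groups overlapped. With the 2 copies added up, the log2 difference in CD115- CDPs was -1.19 (SE 0.41; limma, adjusted p = 0.51).

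In BM pDCs both copies were low in the 4 libraries and rose. Hspa1a measured 4.08 and 4.36 FPKM in controls and 6.33 and 8.80 FPKM in HDAC3-deficient libraries, which rest on 211 and 222 against 326 and 457 expected counts. Hspa1b measured 4.16 and 5.31 against 9.42 and 9.0 FPKM. For each copy both HDAC3-deficient libraries lay above both controls. The log2 change was 0.98 for Hspa1a (SE 0.30; edgeR, adjusted p = 0.0049) and 1.10 for Hspa1b (SE 0.28; edgeR, adjusted p = 7.8e-04). Added up, the copies rose by 1.04 on the log2 scale (SE 0.26; edgeR, adjusted p = 6.8e-04). The highest Hspa1a value in BM pDCs, 8.80 FPKM, was below the lowest in LMPPs, 14.7 FPKM, in tables normalized separately. In the same libraries Hspa1b stood at 9.0 and 0.16 FPKM, so this order does not hold for the copies added up.

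How the tables divide reads between the copies differed between cell types. Hspa1a was listed at 6225 to 9194% of Hspa1b in the LMPP libraries, at 346 to 1937% in the CD115- CDP libraries and at 67.2 to 98.1% in the BM pDC libraries. In the CD115- CDPs the lowest of these shares were those of the HDAC3-deficient libraries. Values of a single copy are therefore uncertain, and those of the sum do not depend on the split within a table.

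Dnajb1, the J-domain protein that delivers clients to HSP70 and is induced with it, fell in LMPPs. It measured 257 and 229.7 FPKM in controls and 73.7 and 65.0 FPKM in HDAC3-deficient LMPPs. Replicates were close within each group and the groups did not overlap. The log2 change was -1.80 (SE 0.16; limma, adjusted p = 9.1e-06) and was between -1.89 and -1.71 with any 1 library left out. In CD115- CDPs the values were 107 and 93.7 against 59.1 and 53.4 FPKM. The HDAC3-deficient libraries were again lower than both controls, and the log2 difference of -0.83 had no call (limma, adjusted p = 0.47). Dnajb1 was called without HDAC3-deficient library 1 (log2 change -0.90, limma, adjusted p = 0.0011) and without library 2 (-0.76, limma, adjusted p = 0.016). In BM pDCs Dnajb1 was nearly the same in all 4 libraries, at 42.3 and 44.6 against 43.8 and 44.8 FPKM, and its groups overlapped. Its log2 change of 0.16 (edgeR, adjusted p = 0.17) passed the test only without HDAC3-deficient library 1 (0.22, edgeR, adjusted p = 0.042).

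Hsph1, the HSP110 protein that releases ADP from HSP70, had a different pattern and fell in BM pDCs. There it measured 18.2 and 20.8 FPKM in controls and 9.36 and 5.72 FPKM in HDAC3-deficient libraries. Both HDAC3-deficient libraries were below both controls, and library 2 was the lower of them. The log2 change was -1.21 (SE 0.33; edgeR, adjusted p = 0.0020). In LMPPs it stood at 35.8 and 24.7 against 35.4 and 28.2 FPKM and in CD115- CDPs at 21.1 and 23.2 against 15.3 and 29.9 FPKM. The groups overlapped in both progenitors, and the log2 differences were 0.09 (limma, adjusted p = 0.78) and -0.04 (limma, adjusted p = 0.98).

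Hsp90aa1, the stress-inducible cytosolic HSP90, was higher in every HDAC3-deficient library than in every control of its cell type, and passed the test in BM pDCs. In BM pDCs it measured 160.3 and 190.0 against 243.8 and 217 FPKM, and rose by 0.53 on the log2 scale (SE 0.17; edgeR, adjusted p = 0.0074). The call was lost without control library 1 (edgeR, adjusted p = 0.13). In LMPPs it measured 725 and 632 against 892 and 871 FPKM (log2 difference 0.38, limma, adjusted p = 0.18), and in CD115- CDPs 345 and 435 against 567 and 914 FPKM (0.89, limma, adjusted p = 0.53). HDAC3-deficient library 2 of the CD115- CDPs had the highest value of its table, and without library 1 the difference was called at 1.24 (limma, adjusted p = 3.3e-04).

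Hspa8, the constitutive HSC70 that also drives clathrin uncoating and chaperone-mediated autophagy, had the highest level of the 10 genes in all 12 libraries. It measured 3613 and 3203 FPKM in controls and 4567 and 3888 FPKM in HDAC3-deficient LMPPs. In CD115- CDPs it measured 2226 and 2015 against 3530.4 and 3765 FPKM. In BM pDCs it measured 970.1 and 1029 against 1711 and 1942 FPKM. Both HDAC3-deficient libraries lay above both controls in each of the 3 cell types. Hspa8 rose in BM pDCs, by 1.01 on the log2 scale (SE 0.25; edgeR, adjusted p = 5.6e-04). The differences of 0.31 in LMPPs (limma, adjusted p = 0.45) and 0.78 in CD115- CDPs (limma, adjusted p = 0.54) had no call, and that in LMPPs was called at 0.42 without HDAC3-deficient library 2 (limma, adjusted p = 0.037).

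Hsp90ab1, the constitutive cytosolic HSP90, followed Hspa8 in direction. Its values were 1089.9 and 1113 against 1579 and 1636 FPKM in LMPPs. They were 663 and 799.6 against 1392 and 1293 FPKM in CD115- CDPs. They were 499 and 507 against 593 and 605 FPKM in BM pDCs. The groups did not overlap in any of the 3 cell types, and the controls were the lower group in each. Hsp90ab1 rose in BM pDCs by 0.39 on the log2 scale (SE 0.13; edgeR, adjusted p = 0.013), a call that was lost without control library 1 or control library 2 (edgeR, adjusted p = 0.18 each). The log2 differences of 0.55 in LMPPs (limma, adjusted p = 0.087) and 0.88 in CD115- CDPs (limma, adjusted p = 0.47) had no call. Without HDAC3-deficient library 1 or library 2 both differences were called, at 0.57 and 0.52 in LMPPs (limma, adjusted p = 0.0044 and 0.012) and at 0.83 and 0.94 in CD115- CDPs (limma, adjusted p = 0.018 and 0.022).

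Hspd1 (HSP60) and Hspe1 (HSP10) form the folding chamber of the mitochondrial matrix and its lid, and both rose in LMPPs. Hspd1 measured 292 and 224 FPKM in controls and 491 and 450.0 FPKM in HDAC3-deficient LMPPs. Hspe1 measured 255 and 204 against 338 and 506 FPKM. Every HDAC3-deficient library was above every control for both genes. Hspd1 rose by 0.88 on the log2 scale (SE 0.19; limma, adjusted p = 0.0049) and Hspe1 by 0.86 (SE 0.21; limma, adjusted p = 0.010). Both calls were lost without control library 2 (limma, adjusted p = 0.18 and 0.15) and without the filter on low values (limma, adjusted p = 0.065 and 0.10).

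In CD115- CDPs Hspd1 measured 128 and 166 against 316 and 394 FPKM, and Hspe1 125 and 122 against 205 and 188 FPKM. The HDAC3-deficient libraries were the higher ones for both genes. The log2 differences were 1.28 for Hspd1 (limma, adjusted p = 0.37) and 0.67 for Hspe1 (limma, adjusted p = 0.51). Hspd1 was called without HDAC3-deficient library 1 (1.43, limma, adjusted p = 1.4e-05), without library 2 (1.12, limma, adjusted p = 7.9e-04) and with the replicate block (limma, adjusted p = 0.0051), and Hspe1 was called without library 1 and without library 2 (limma, adjusted p = 0.020 each). In BM pDCs the pair parted. Hspe1 fell, from 91.6 and 103 to 65.3 and 64.3 FPKM, with a log2 change of -0.45 (SE 0.14; edgeR, adjusted p = 0.0071) that was not called without control library 2 (edgeR, adjusted p = 0.098). Hspd1 stood at 38.1 and 42.5 against 47.9 and 33.0 FPKM, and its groups overlapped (log2 difference 0.13, edgeR, adjusted p = 0.52). Without HDAC3-deficient library 2, the lowest of the 4, Hspd1 was called at 0.35 (edgeR, adjusted p = 0.0071).

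Hsf1, the factor that drives the inducible genes and is regulated mostly after translation, had no call in any cell type. In LMPPs it measured 53.4 and 46.7 against 50.8 and 50.5 FPKM, and the HDAC3-deficient values lay between the controls (log2 difference 0.02, limma, adjusted p = 0.93). In CD115- CDPs it measured 39.3 and 39.6 against 47.1 and 20.2 FPKM, where the HDAC3-deficient libraries lay on either side of the controls (-0.35, limma, adjusted p = 0.81). It was called at -0.95 without HDAC3-deficient library 1 (limma, adjusted p = 0.0014). In BM pDCs it measured 33.1 and 32.3 against 23.7 and 26.2 FPKM. Both HDAC3-deficient values were the lower ones there, and the log2 difference of -0.27 lay just short of a call (edgeR, adjusted p = 0.053). Hsf1 was called in BM pDCs without HDAC3-deficient library 2 (-0.36, edgeR, adjusted p = 0.0063) and by limma on FPKM (-0.39, adjusted p = 0.0096).

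**Figure D3:**
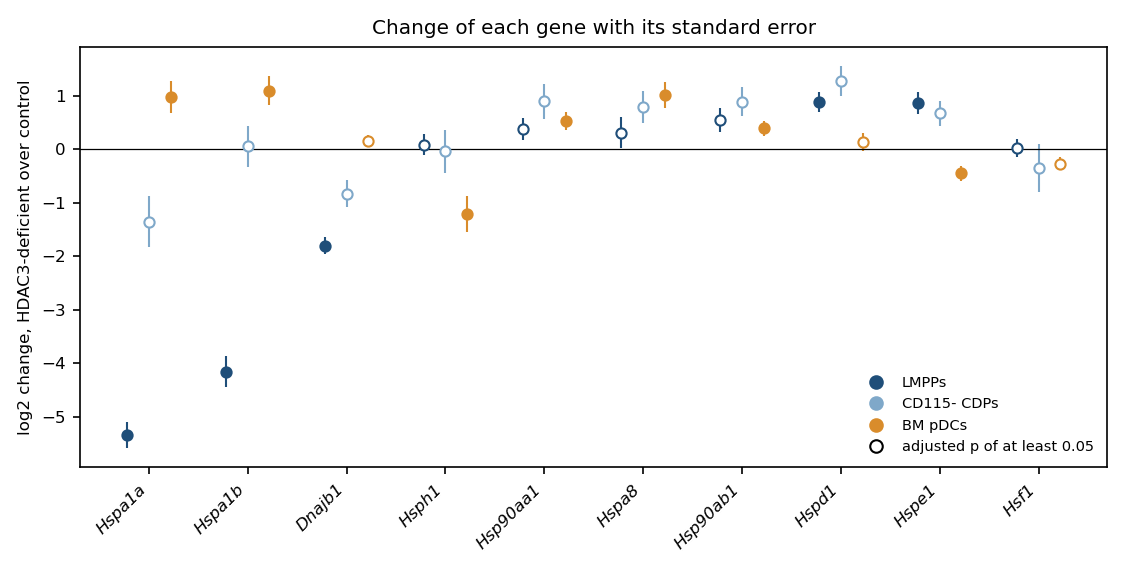
The log2 change of HDAC3-deficient over control libraries for each of the 10 genes with its SE, coloured by cell type, with filled points for an adjusted p under 0.05. Hspa1a lies at -5.34 in LMPPs, -1.35 in CD115- CDPs and 0.98 in BM pDCs, while Hspa8 and Hsp90ab1 lie above 0 in all 3.

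Ratios within a library set inducible against constitutive genes without the scaling of that library. In control LMPPs Hspa1a stood at 23.9 and 27.5% of Hspa8, and in HDAC3-deficient LMPPs at 0.660 and 0.378%. In CD115- CDPs the ratio was 6.13 and 5.08% against 2.04 and 0.779%. In BM pDCs it was 0.421 and 0.424% against 0.370 and 0.453%. The groups were apart in both progenitors and overlapped in BM pDCs, where the log2 difference of the ratio was -0.04. With Hsp90ab1 as the denominator that difference was 0.57. The exact permutation test of 2 against 2 libraries cannot go below p = 0.33, so no test was made of these ratios.

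Dnajb1 was lower relative to Hspa8 in HDAC3-deficient libraries of each cell type. Its ratio was 7.11 and 7.17% against 1.61 and 1.67% in LMPPs. It was 4.82 and 4.65% against 1.67 and 1.42% in CD115- CDPs, and 4.36 and 4.33% against 2.56 and 2.31% in BM pDCs. The control ratios spanned 4.33 to 7.17% over the 3 cell types, a narrow range beside that of Hspa1a. In BM pDCs the lower ratio came with a higher Hspa8 and no call for Dnajb1. Hsph1 was 1.88 and 2.02% of Hspa8 in control and 0.547 and 0.295% in HDAC3-deficient BM pDCs. With Hsp90ab1 in place of Hspa8 as the denominator, the log2 difference of Dnajb1 in BM pDCs was -0.22 in place of -0.84.

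**Figure D4:**
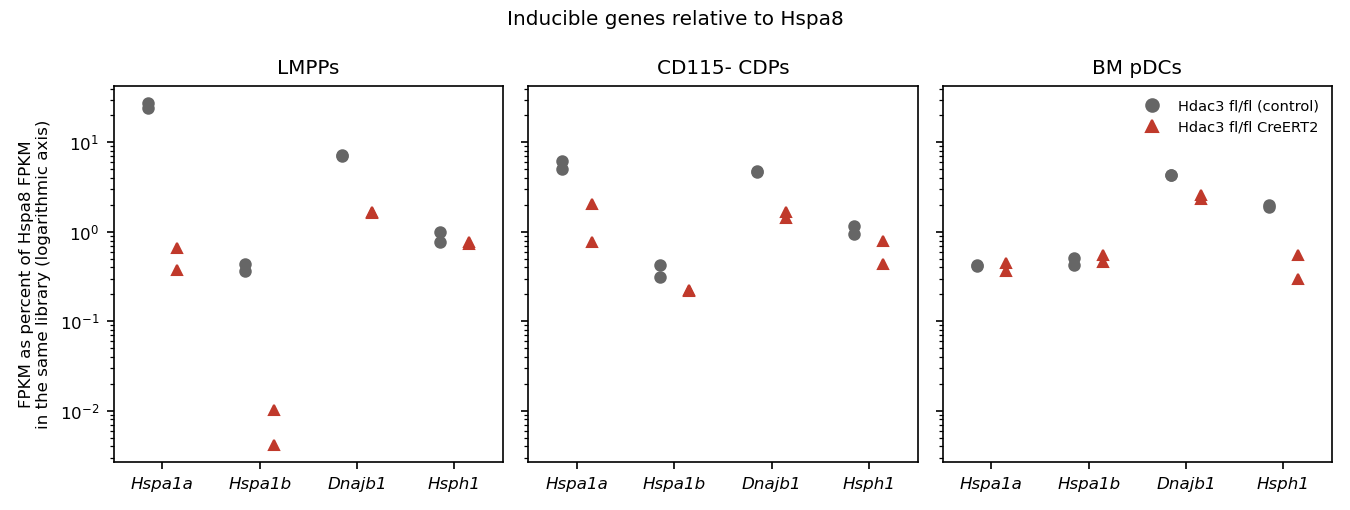
FPKM of Hspa1a, Hspa1b, Dnajb1 and Hsph1 as a percent of Hspa8 in the same library, on a logarithmic axis, for control (circles) and HDAC3-deficient (triangles) libraries of each cell type. In LMPPs Hspa1a moves from 23.9 and 27.5% to 0.660 and 0.378%, and in BM pDCs the groups overlap.

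Within the HSP90 pair Hsp90aa1 was 66.5 and 56.8% of Hsp90ab1 in control and 56.5 and 53.2% in HDAC3-deficient LMPPs. The corresponding values were 52.1 and 54.4 against 40.7 and 70.7% in CD115- CDPs, and 32.1 and 37.5 against 41.1 and 35.8% in BM pDCs. The groups were just apart in LMPPs and overlapped in CD115- CDPs and BM pDCs. Hspe1 was 87.3 and 91.0% of Hspd1 in control LMPPs and 68.9 and 112% in HDAC3-deficient LMPPs. The ratio was 98.2 and 73.4% against 65.0 and 47.7% in CD115- CDPs, and 241 and 243.5% against 136 and 195% in BM pDCs. The groups of this ratio overlapped in LMPPs, and the HDAC3-deficient libraries were the lower ones in CD115- CDPs and BM pDCs.

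Together the 10 genes made up 1.16 and 1.10% of all FPKM in control LMPPs and 1.31 and 1.06% in HDAC3-deficient LMPPs, and these groups overlapped. The total was 0.665 and 0.688% against 1.08 and 1.23% in CD115- CDPs and 0.392 and 0.411% against 0.590 and 0.601% in BM pDCs. Hspa8 alone was 0.537 to 0.741% of all FPKM in the LMPP libraries.

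The partners of these genes were followed in 10 lists of 105 genes, and their counts in LMPPs stand beside 4.31% of all tested genes risen and 18.8% fallen. In LMPPs the cytosolic chaperonin TRiC, which folds actin and tubulin, and its partner prefoldin had 5 of 14 tested genes risen and 0 fallen, with a median log2 change of 0.42. Tcp1, a TRiC subunit, rose from 219 and 179 to 321 and 299 FPKM (log2 change 0.64, limma, adjusted p = 0.018). Pfdn6, a prefoldin subunit, rose by 0.86 (limma, adjusted p = 0.0040). The count was 2 without control library 1, 0 without control library 2 and 10 without HDAC3-deficient library 1. It was 8 with median-ratio scaling, 2 with quantile normalization, 1 without limma's trend and 0 without the filter on low values. Among mitochondrial chaperones and proteases 2 of 10 rose and 0 fell. They were Hspa9 (mortalin, the HSP70 of the matrix), which went from 190.2 and 177 to 363 and 316 FPKM (0.88, limma, adjusted p = 0.0027), and Grpel1, its nucleotide exchange factor (0.61, limma, adjusted p = 0.028), with 0 risen without control library 2 and 1 without HDAC3-deficient library 2. With median-ratio scaling 5 of the 10 rose.

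Partners of cytosolic HSP70 moved in both directions in LMPPs, with 2 of 13 risen and 1 fallen (1 risen without control library 2, 2 fallen without HDAC3-deficient library 1). Hspa4, an exchange factor of the HSP110 family, rose from 48.5 and 40.3 to 89.1 and 78.0 FPKM (log2 change 0.91, limma, adjusted p = 0.0021). Its relative Hspa4l fell from 10.4 and 12.6 to 4.36 and 3.93 FPKM (-1.37, limma, adjusted p = 0.0013). For both genes the libraries did not overlap. Hspa14 rose by 0.63 (limma, adjusted p = 0.014), and Bag3, an HSF1 target that links HSP70 to autophagy, stood at 4.71 and 3.53 against 2.20 and 2.05 FPKM (-0.80, limma, adjusted p = 0.052). Of 6 J-domain genes 0 rose and 1 fell, Dnajb4, from 22.5 and 21.7 to 8.84 and 4.83 FPKM (-1.68, limma, adjusted p = 4.6e-04). HSP90 co-chaperones had 2 of 11 risen, Ptges3 (p23) and Ppid, and 1 fallen, Ahsa2. Risen co-chaperones were 1 without control library 1, 0 without control library 2 and 4 without HDAC3-deficient library 1, and fallen ones were 0 without control library 1, control library 2 or HDAC3-deficient library 1.

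The small heat shock proteins, which hold unfolded proteins without ATP, included a gene that fell by as much as Hspa1a. Hspb1 (HSP27 in human, HSP25 in mouse) measured 71.8 and 46.8 FPKM in control and 0.66 and 0.38 FPKM in HDAC3-deficient LMPPs. The 4 libraries formed groups far apart, and Hspb1 fell by 5.86 on the log2 scale (SE 0.26; limma, adjusted p = 8.8e-09). Of 3 tested small heat shock genes 2 fell, the other being Hspb6, with 1 fallen without control library 2 and 3 without HDAC3-deficient library 2. In CD115- CDPs Hspb1 was listed at 0.59 and 0.50 against 0 and 0 FPKM, and in BM pDCs at 0 to 0.19 FPKM. Mt1 (metallothionein) rose in LMPPs, from 9.51 and 13.7 to 25.3 and 34.2 FPKM (1.33, limma, adjusted p = 9.7e-04). ER chaperones had 0 of 11 risen and 1 fallen (Dnajb9), but 1 risen and 0 fallen with median-ratio scaling, with quantile normalization or without HDAC3-deficient library 2, and 3 risen and 1 fallen without HDAC3-deficient library 1. Of Hsf2 and Hsbp1, the tested genes of the factor list, 0 had a call.

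Immediate early genes, which respond within minutes to signals and to cell handling, were lower in LMPPs as were the inducible HSP70 genes: 13 of 15 fell and 0 rose, with a median log2 change of -2.14. Egr1 went from 188 and 239 to 19.1 and 10.2 FPKM (log2 change -3.87, limma, adjusted p = 2.4e-07), and Jun from 598 and 686 to 80.0 and 52.1 FPKM (-3.30, limma, adjusted p = 2.4e-07). The groups were apart for both genes. The count of fallen genes was 10 to 14 with any 1 library left out and 6 without the filter on low values. All 6 neutrophil markers also fell in LMPPs, their sum being 612 and 423 FPKM in controls and 46.6 and 16.0 FPKM in HDAC3-deficient libraries, and none was at 0 in all libraries. All 4 megakaryocyte markers and 2 of 3 basophil and mast cell markers fell as well, from sums of 28.3 and 58.3 to 8.33 and 7.64 FPKM and of 157 and 111 to 48.6 and 34.8 FPKM. Of 6 T and NK cell markers Nkg7 rose, from 221 and 222 to 366 and 451 FPKM, Klrb1c fell, from 3.15 and 2.51 to 0.63 and 0.42 FPKM, and the other 4 were too low to be tested. The summed erythroid markers were 6863 FPKM in control library 1 and 163 FPKM in control library 2, against 87.7 and 230 FPKM in HDAC3-deficient libraries. The part of immediate early signalling and of RNA from these other cell types in the fall of Hspa1a, Hspa1b and Dnajb1 was not tested.

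In CD115- CDPs 0 genes of the 10 lists passed the test by limma, and 2 genes that rose in LMPPs are given with their values. Leaving out either HDAC3-deficient library gave calls in these lists, as it did among all tested genes. They included risen TRiC and prefoldin genes, risen mitochondrial chaperones and proteases and fallen immediate early genes. Without HDAC3-deficient library 2 immediate early genes had calls in both directions. The replicate block called 3 of 14 immediate early genes fallen, beside 291 of all 10832 tested genes. Mt1 measured 4.90 and 10.9 against 63.6 and 76.5 FPKM (log2 difference 3.16, limma, unadjusted p = 5.1e-04, adjusted p = 0.23). Hspa9 measured 144 and 170 against 324 and 362 FPKM (1.13, limma, unadjusted p = 0.0047, adjusted p = 0.37). Both genes had HDAC3-deficient libraries above both controls. The same order without overlap held for 10 of 14 TRiC and prefoldin genes and for 7 of 10 mitochondrial chaperones and proteases, with 0 genes of either list below, against 15.2% of all tested genes above and 28.4% below. Immediate early genes had a median log2 difference of -0.63, and 5 of 14 lay below without overlap. Among T and NK cell markers Nkg7 measured 46.7 and 66.0 FPKM in controls against 281 and 400 FPKM (limma, adjusted p = 0.22). Klrb1c measured 1.48 and 0.25 against 0.85 and 2.60 FPKM, and its groups overlapped (limma, adjusted p = 0.77). Cd3e, Cd3g and Gzma were at 0.27 FPKM or less in control library 1 and at 0 in control library 2 and both HDAC3-deficient libraries. The summed pDC markers were 2468 and 1877 against 1172 and 589 FPKM. Their part in these differences was not tested.

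In BM pDCs the list counts stand beside 21.6% of all tested genes risen and 22.5% fallen. J-domain proteins had 1 of 8 genes risen and 5 fallen, with a median log2 change of -0.56, and the risen one, Dnajb6, had no call without control library 1 or control library 2. Dnaja1, a broadly expressed partner of HSC70, fell from 60.6 and 67.1 to 41.6 and 35.2 FPKM (log2 change -0.60, edgeR, adjusted p = 0.0030), and Dnaja4 from 2.51 and 2.43 to 0.67 and 0.50 FPKM (-1.94, edgeR, adjusted p = 5.1e-04). HSP90 co-chaperones had 1 of 11 risen and 5 fallen. Fkbp4 fell from 64.1 and 66.5 to 33.1 and 30.8 FPKM (-0.90, edgeR, adjusted p = 2.4e-04), and Stip1, the adaptor that hands clients from HSP70 to HSP90, fell by 0.45 (edgeR, adjusted p = 0.0047). Fkbp5, a co-chaperone induced by glucocorticoids, rose from 23.9 and 28.6 to 37.5 and 63.7 FPKM (1.09, edgeR, adjusted p = 0.010), and it had no call without control library 1. In each of these genes the HDAC3-deficient libraries lay on one side of the controls.

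TRiC and prefoldin, risen in part in LMPPs, had 0 of 14 genes risen and 5 fallen in BM pDCs. Cct3 fell from 57.9 and 62.7 to 40.2 and 33.6 FPKM (log2 change -0.57, edgeR, adjusted p = 0.0034). The tables were fitted separately and the difference between LMPPs and BM pDCs was not tested. ER chaperones had 0 of 11 risen and 6 fallen, led by Dnajc3, from 42.9 and 48.2 to 27.8 and 23.5 FPKM (-0.70, edgeR, adjusted p = 0.0018). HSP70 partners had 2 of 14 risen and 4 fallen, among them Hspa4l (-1.11, edgeR, adjusted p = 4.4e-04) and the HSF1 target Bag3 (-0.83, edgeR, adjusted p = 0.0055). Hsf2 fell by 0.45 (edgeR, adjusted p = 0.042) and Hsbp1, a small protein that binds HSF1 trimers, fell from 60.9 and 60.01 to 32.4 and 33.9 FPKM (-0.73, edgeR, adjusted p = 7.7e-04). Of these 2 genes 1 had a call without control library 1, control library 2 or HDAC3-deficient library 2, with the replicate block and with DESeq2. Counts of fallen genes without control library 1 and without control library 2 were 1 and 1 for TRiC and prefoldin, 3 and 2 for ER chaperones, 2 and 2 for HSP90 co-chaperones and 4 and 3 for J-domain proteins. Without HDAC3-deficient library 1 TRiC and prefoldin had 9 fallen, and by limma on FPKM 10. HSP70 partners had 1 and 0 risen without control library 1 and control library 2.

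Of 10 mitochondrial chaperones and proteases 1 rose in BM pDCs (Hscb, with 0 without control library 1 or control library 2) and 0 fell, and of the tested small heat shock genes 1 of 2 rose, Hspb6, from 6.61 and 5.85 to 13.0 and 16.3 FPKM (1.37, edgeR, adjusted p = 7.5e-04).

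Genes induced by other stresses split in BM pDCs, with 4 of 7 risen and 1 fallen. Serpinh1 (HSP47, a collagen chaperone and HSF1 target) fell from 27.8 and 28.9 to 2.54 and 1.24 FPKM (log2 change -3.77, edgeR, adjusted p = 5.0e-05). Mt1 rose from 3.18 and 4.61 to 16.5 and 12.2 FPKM (2.03, edgeR, adjusted p = 8.9e-04), and Mt2 from 0.52 and 0.94 to 11.4 and 5.94 FPKM (3.67, edgeR, adjusted p = 8.4e-04). Immediate early genes had 10 of 16 risen and 1 fallen. Egr1 rose from 10.4 and 10.9 to 29.9 and 41.4 FPKM (1.88, edgeR, adjusted p = 2.3e-04). Its HDAC3-deficient libraries lay above both controls, as did those of Hspa1a and Hspa1b. Markers of other cells also differed in BM pDCs. Kit rose from 1.77 and 1.54 to 8.52 and 9.77 FPKM, Cd34 from 1.81 and 1.67 to 4.05 and 4.85 FPKM, and Car1, an erythroid marker, from 4.29 and 4.77 to 34.5 and 27.8 FPKM. All 3 basophil and mast cell markers and 2 of 5 macrophage markers fell. The part of immediate early signalling, of these markers and of the lower sum of pDC markers in the changes of the chaperones was not tested.

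**Figure D5:**
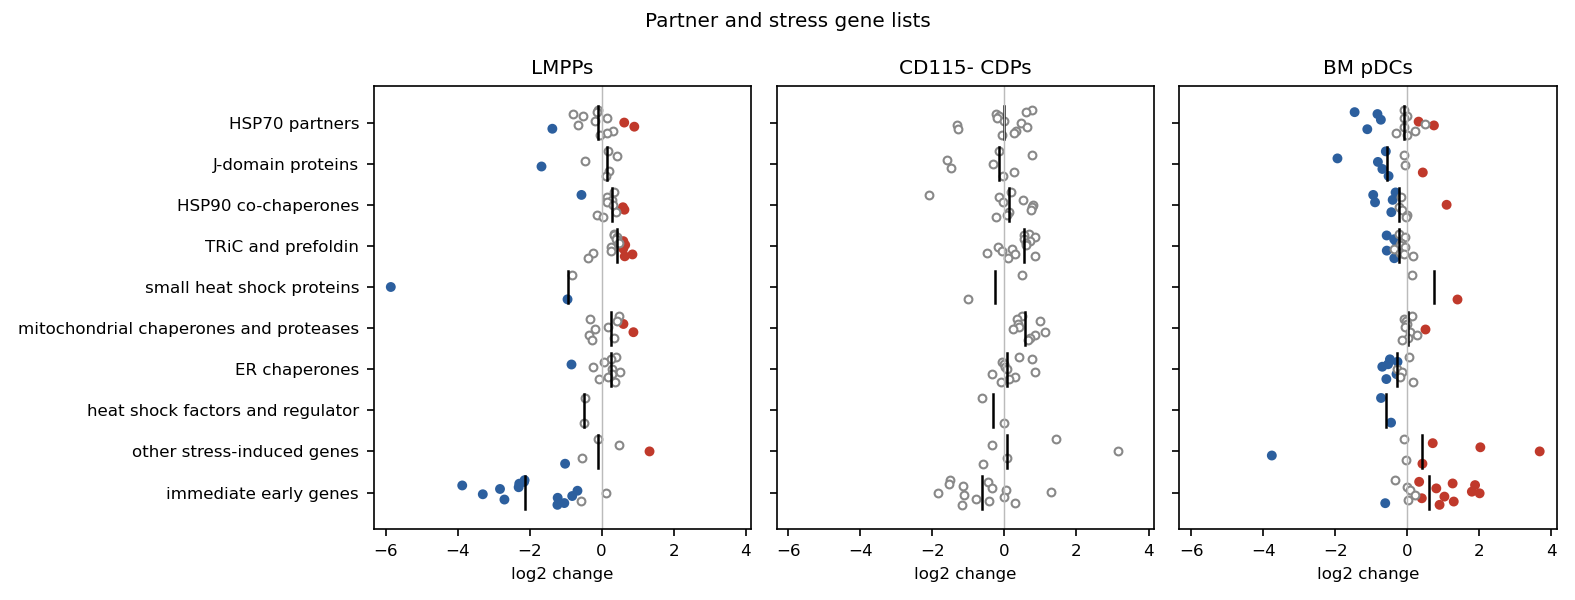
The log2 change of each tested gene in 10 lists of partners and stress genes, in 3 panels by cell type, with risen genes in red, fallen genes in blue, genes without a call as open circles and the median as a vertical bar. Immediate early genes have a median of -2.14 in LMPPs and 0.60 in BM pDCs, and TRiC and prefoldin genes lie mostly above 0 in LMPPs and mostly below 0 in BM pDCs.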

How the data were processed

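RNA-seq of 12 libraries was analysed, and genotypes came from the submitters' labels. Bowtie2, RSEM and mm10 are named in the submitters' processing notes, and their versions are not stated. The authors deposited FPKM per gene for both progenitors. Per BM pDC gene the authors deposited 3 values, namely an expected count, FPKM and TPM, and TPM was not used. Progenitor depth is unknown. CD115- CDP genes were named through the gene identifiers of the BM pDC table. Symbols were found for 16382, 15966 and 16896 genes in LMPPs, CD115- CDPs and BM pDCs. The 10 genes, the partner lists and the markers were chosen with earlier results of these data known.

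Tests set HDAC3-deficient against control libraries of the same cell type. Progenitors were fitted by limma 3.58.1 (trend) on log2(FPKM + 0.5), keeping genes that reached 1 FPKM in 2 or more libraries, and BM pDCs with edgeR 4.0.16 (filterByExpr, TMM, quasi-likelihood) on rounded expected counts, in R 4.3.3. The SE of an edgeR change is the change divided by the normal quantile of its p. Tests were two-sided, with Benjamini-Hochberg adjustment over all tested genes and a call at an adjusted p under 0.05. Named genes are the 10 genes, Hdac3 and, per list and cell type, up to 4 genes with the smallest p; Hspb1 where it was not tested and Dnajb6 in BM pDCs were added after their values were seen. A gene that this rule would name is left out here. On simulated data with 200 changed genes, the recovered share at a log2 fold of 1 was 100% in LMPPs (10815 genes), 100% in CD115- CDPs (10443 genes) and 70.8% in BM pDCs (12559 genes). At a log2 fold of 0.5 it was 64.1%, 30.8% and 8.96%. The simulated spread was taken from the control libraries alone in progenitors, and was a fixed value in BM pDCs. In CD115- CDPs the HDAC3-deficient libraries correlated at 0.871 with each other, and the controls at 0.977. The simulated shares therefore do not show what the CD115- CDP test could find. The fixed spread used for BM pDCs was not estimated from those libraries. The shares for BM pDCs therefore do not show what that test could find either.

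Promoter windows are RefSeq's (GRCm38.p6). Coding sequences were aligned with Biopython 1.88 from GENCODE transcripts; proteins were not compared. Alternatives were other scalings, pseudocounts and filters, limma without trend, DESeq2 1.42.0, a replicate block, the HSP70 copies added up and each library left out. Python 3.11.15, pandas 2.3.3 and matplotlib 3.10.9 served for the remaining steps.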

Additional observations from a re-analysis of the deposited data

Results flagged for a closer look

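For 3 genes the libraries of the cell types moved in opposite directions, each HDAC3-deficient library lying above both controls in one cell type and below both in another. The tables were normalized and fitted separately, so these differences between cell types were not tested. Lysis differed between progenitors and pDCs, and the labels do not say which libraries followed Illumina or BGI protocols. Hspa1a had a log2 change of -5.338 in LMPPs and a difference of -1.352 in CD115- CDPs against 0.9793 in BM pDCs. Hspa1b had -4.153 in LMPPs against 1.095 in BM pDCs. Hspe1 had 0.858 in LMPPs and 0.6663 in CD115- CDPs against -0.4536 in BM pDCs. Groups without overlap were frequent among all tested genes. They were 17.6% higher and 48.2% lower in LMPPs, 15.2% and 28.4% in CD115- CDPs, and 27.2% and 48.9% in BM pDCs. How many of all genes lay apart in opposite directions was not counted, so the 3 genes cannot be set against such a share.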

How the results depend on the processing

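In LMPPs the 3 fallen and 2 risen heat shock genes were called under every scaling and pseudocount tried, and the risen ones were 0 without the filter on low values and 0 to 4 with a library left out. Over all genes in LMPPs, 480 risen and 2096 fallen became 863 and 999 with median-ratio scaling, 777 and 874 with quantile normalization and 50 and 451 without the filter; risen genes were 227 without the trend, 779 with a crossed replicate block and 172 to 951 with a library left out, and fallen ones 995 to 2981. In CD115- CDPs the 0 calls became 102 risen and 291 fallen with the replicate block (1 and 1 of the 10 genes), 2 fallen with quantile normalization, and up to 1640 risen and 3471 fallen with a library left out (0 to 4 and 0 to 3 of the 10 genes). Nothing in the labels makes equal numbers a pair; the deviations of equal-numbered libraries from their group means correlated at -0.10 in LMPPs, 0.24 in CD115- CDPs and -0.24 in BM pDCs. The replicate block gave 454 risen and 2094 fallen genes in LMPPs and 2476 and 2585 in BM pDCs, and the crossed pairing gave 2796 and 2898 in BM pDCs. In BM pDCs leaving out a library gave 1440 to 3446 risen and 1310 to 3559 fallen genes, with 3 to 6 risen and 1 to 3 fallen among the 10. The cause of these changes was not tested.

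Uncalled genes changed sign: in LMPPs Hsph1 (-0.18 to 0.35 with a library left out) and Hsf1 (-0.0745 to 0.12); in CD115- CDPs Hspa1b (-0.0905 to 0.19), Hsph1 (0.0858 with median-ratio scaling, 0.073 with quantile normalization, -0.51 to 0.43 with a library left out) and Hsf1 (-0.95 to 0.26); in BM pDCs Hspd1 (-0.0161 with limma, -0.12 to 0.35 with a library left out). With Hsp90ab1 as denominator the log2 differences of the ratios were -2.36 (Dnajb1) and -0.46 (Hsph1) in LMPPs, and 0.57 (Hspa1a), 0.72 (Hspa1b), -0.22 (Dnajb1) and -1.67 (Hsph1) in BM pDCs, against -2.12, -0.22, -0.04, 0.10, -0.84 and -2.28 with Hspa8. With the copies added up, the ratio to Hspa8 was -1.99 in CD115- CDPs (Hspa1b alone -0.73) and 0.0404 in BM pDCs (Hspa1a alone -0.04). With a library left out the BM pDC ratio ranged from -0.19 to 0.10 for Hspa1a and from -0.0302 to 0.24 for Hspa1b, and the summed share of the 10 genes in LMPPs differed by -0.0666 to 0.18 percentage points. Depth of the progenitor libraries is unknown, and with 2 libraries a group small changes can be missed.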
